A study of Mus musculus with 11 samples.

Results

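The response to lipopolysaccharide (LPS) was measured in BV2 cells carrying siRNA against Tet2, across all genes of the deposited expression table. BV2 is an immortalised mouse microglial line. The comparison used 5 of the 11 libraries of the series, chosen by their labels: 2 of LPS-treated Tet2 siRNA cells, numbered 2 and 3, and 3 of untreated Tet2 siRNA cells. All cells had been lipofected with siRNA, either against Tet2 or a non-targeting control, so the untreated cells here carry the Tet2 siRNA too. From 48 h after transfection the treated cells received LPS at 1 µg/ml for 3 h. Serum was 10% for growth and 5% for treatment, as listed for every library, untreated ones included. The other 6 libraries, 3 untreated and 3 LPS-treated with control siRNA, serve below as the comparison response. Whether the replicates of a group were cultured apart is not stated, and p-values then measure only the spread between these libraries, which may be technical. All values come from 1 cell line.

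LPS, a bacterial cell wall component, binds a surface complex of Cd14, Ly96 and Toll-like receptor 4 (Tlr4). The adaptor Myd88 leads from that complex to NF-kB and MAP kinases, which drive early cytokine and chemokine genes, and the adaptor Ticam1 leads to Irf3 and interferon beta. Secreted interferon beta then acts through its receptor on antiviral genes. Tet2 oxidises 5-methylcytosine in DNA.

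The 5 libraries held 8739716 to 21958270 reads on genes, with a median of 18408446, and 12866 to 14180 genes with at least 1 read. Values are given as normalised reads, which are the reads of a library divided by its size factor, and differences are on the deposited variance-stabilised log2 scale, which understates changes of genes with few reads. Of 16 markers of microglia and macrophages, 15 had reads in these cells. Cd68, Csf1r and Lyz2 were abundant, whereas P2ry12 had between 1.07 and 10.8 normalised reads, Tmem119 between 7.79 and 31.2, and Sall1, a factor that marks microglia in brain, was at 0 in all 5 libraries. Markers of neurons summed to at most 7.75 normalised reads, those of astrocytes to at most 6.89 and those of lymphocytes and granulocytes to at most 1.80, with 6 of 8, 5 of 8 and 9 of 10 at 0 throughout. The endothelial and fibroblast list summed to between 2233 and 4278, nearly all from Kdr, and the oligodendrocyte list to between 121 and 173, mostly from Cnp. Both libraries numbered 2 stood apart. Summed macrophage markers were 91903, 53608 and 75112 normalised reads in untreated replicates 1 to 3 and 50837 and 83918 in LPS replicates 2 and 3, and the median of 39 cell cycle genes lay 0.47 above the untreated mean in untreated replicate 2 and 0.42 above it in LPS replicate 2, against -0.44, -0.04 and -0.36 in untreated replicates 1 and 3 and LPS replicate 3.

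Tet2, the gene the siRNA targets, had 1453, 1988 and 1662 normalised reads in untreated cells and 7969 and 9238 after LPS. The control siRNA cells had 1988, 2399 and 1827 untreated and 10405, 16792 and 14762 after LPS. Among treated libraries every Tet2 siRNA value lay below every control siRNA value, but among untreated ones the ranges overlapped. Within the Tet2 siRNA cells both LPS libraries lay above all 3 untreated ones. The rise was 5.06-fold, or 2.33 on the log2 scale (SE 0.22, limma adjusted p = 1.11e-05), and the exact two-sided permutation p over the 10 splits of these libraries was 0.1, the smallest they can give. Both LPS-treated Tet2 siRNA libraries also lay above every untreated library of the control siRNA. Of its relatives, Tet1 was at 0 in all 5 libraries, and Tet3 had 2345, 2047 and 2224 normalised reads untreated and 1925 and 1733 after LPS, a difference of -0.27 that did not pass the test (adjusted p = 0.541).

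LPS raised 891 genes (7.14% of the 12486 tested) and lowered 596 (4.77%) at an adjusted p under 0.05. The increases reached much further than the decreases: 248 genes rose and 39 fell by at least 2 log2 units, 54 rose by at least 4, and none fell by as much. At 1 log2 unit the counts were 651 (5.21%) and 317 (2.54%). The median of the raised genes was 1.40, that of the lowered genes -1.05 and that of all genes tested -0.001. Both LPS libraries lay above all 3 untreated ones for 21.9% of all genes tested and below them for 21.3%. The same held for each of the 891 raised genes and for 595 of the 596 lowered genes. Without LPS replicate 3 the counts were 504 raised and 288 lowered. The number lowered was also 333 without LPS replicate 2, 351 without untreated replicate 3 and 262 without both libraries numbered 2, where 605 genes were raised.

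**Figure D1:**
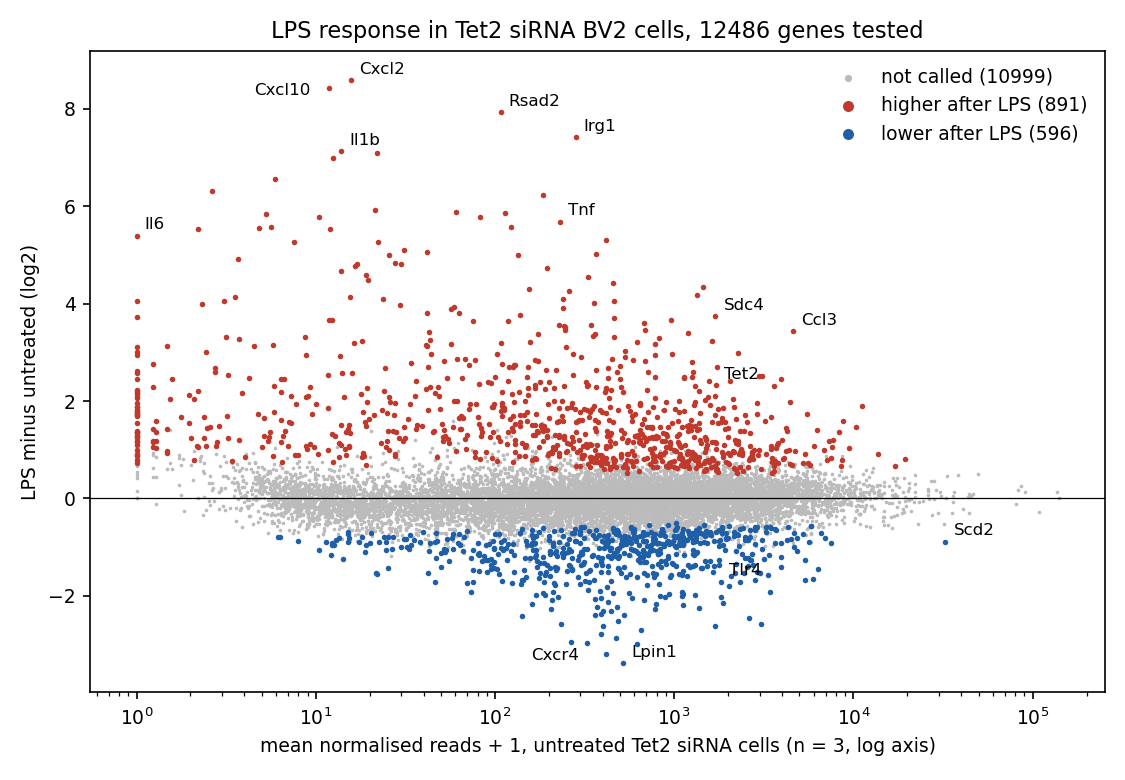
The difference between LPS-treated and untreated Tet2 siRNA cells (vertical, log2) against the mean level in the 3 untreated libraries (horizontal, normalised reads plus 1 on a log axis), 1 point per gene tested. Raised genes (red, 891) reach 8.59 for Cxcl2, and lowered genes (blue, 596) reach -3.39 for Lpin1.

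Raised genes were found at every level of untreated expression. Up to 10 normalised reads untreated, genes at 0 left out, 97 of 795 rose (12.2%) and 4 fell (0.503%), and genes this low pass the filter more easily where LPS raises them. Between 10 and 100 normalised reads untreated, 162 of 2281 genes rose and 89 fell, and between 100 and 1000 the counts were 363 and 330 of 5617. Between 1000 and 10000, 221 of 3555 rose and 172 fell. Above 10000 the response was sparse, with 5 of 181 genes raised and 1 lowered, the lipid desaturase gene Scd2. The 57 tested genes at 0 in all untreated libraries passed the filter only through libraries other than those, so the 43 of them called higher are no measure of how often silent genes respond. The 651 genes that rose by at least 1 log2 unit took 2.78%, 2.49% and 2.61% of all reads in untreated replicates 1 to 3, and 9.08% and 11.6% in LPS replicates 2 and 3. The 317 that fell by as much took 1.67%, 1.47% and 1.60% of reads, and 0.502% and 0.479% after LPS.

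The 4 largest increases belonged to Cxcl2, a neutrophil chemoattractant, Cxcl10, a chemokine for activated T cells, Rsad2, the antiviral enzyme viperin, and Irg1, which makes itaconate. The 250 bases before the start of each are shown because these genes moved most and differ in which motifs they hold. The sequences are from RefSeq (GRCm38.p6, not the mm9 build of the deposited data), at chr5:90903649-90903898 on the plus strand for Cxcl2, chr5:92348890-92349139 on the minus strand for Cxcl10, chr12:26456453-26456702 on the minus strand for Rsad2 and chr14:103046762-103047011 on the plus strand for Irg1, listed there as Acod1. Capitals mark matches, on either strand, to an NF-kB motif, written as GGG and CC parted by any 5 bases, or to an interferon response element, written as GAAA and GAAA parted by any 2 bases.
Cxcl2: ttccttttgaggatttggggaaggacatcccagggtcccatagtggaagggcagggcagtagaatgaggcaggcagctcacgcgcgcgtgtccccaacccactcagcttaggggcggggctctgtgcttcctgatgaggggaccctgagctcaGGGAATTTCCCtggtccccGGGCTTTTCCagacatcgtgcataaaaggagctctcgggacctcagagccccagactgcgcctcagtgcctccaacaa
Cxcl10: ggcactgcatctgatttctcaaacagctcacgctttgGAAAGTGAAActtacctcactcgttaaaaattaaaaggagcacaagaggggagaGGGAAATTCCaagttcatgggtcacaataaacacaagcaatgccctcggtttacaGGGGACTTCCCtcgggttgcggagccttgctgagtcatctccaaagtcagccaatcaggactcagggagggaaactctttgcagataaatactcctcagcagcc
Rsad2: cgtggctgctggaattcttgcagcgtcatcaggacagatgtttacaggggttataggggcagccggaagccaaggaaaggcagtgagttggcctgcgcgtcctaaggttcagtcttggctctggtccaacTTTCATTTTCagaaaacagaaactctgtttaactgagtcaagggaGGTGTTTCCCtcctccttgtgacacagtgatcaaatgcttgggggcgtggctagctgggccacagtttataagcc
Irg1: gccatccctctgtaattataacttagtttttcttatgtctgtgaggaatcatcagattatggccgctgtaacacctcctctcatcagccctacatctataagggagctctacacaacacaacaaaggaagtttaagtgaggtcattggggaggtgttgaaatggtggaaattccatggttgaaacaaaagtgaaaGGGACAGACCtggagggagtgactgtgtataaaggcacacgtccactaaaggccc

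Cxcl2 held GGGAATTTCC at 97 to 88 bases before the start and GGGCTTTTCC at 78 to 69 bases before it, both of a narrower form in which GGG and TTTCC are parted by any 2 bases. Cxcl10 held the interferon element GAAAGTGAAA at 213 to 204 bases before the start, and GGGAAATTCC and GGGGACTTCC nearer to it. Rsad2 held 1 match of each kind, with TTTCATTTTC, the element read on the other strand, at 120 to 111 bases before the start. Irg1 held only GGGACAGACC. The AP-1 motif TGANTCA, left in lower case, occurred once in Cxcl10 and once in Rsad2. Over 32851 mouse promoters of the same length, read on both strands, 45.8% held the NF-kB motif, 1.41% its narrower form, 2.98% the interferon response element and 6.75% the AP-1 motif. Matches to the NF-kB motif can overlap each other, and each match to the narrower form is also one to the wider. A motif share over all raised genes is not given, because only 75.6% of the genes raised by at least 1 log2 unit had a promoter in the table.

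Cxcl2 had 4.31, 10.8 and 29.0 normalised reads in untreated replicates 1 to 3 and 18735 and 11510 in LPS replicates 2 and 3. Cxcl10 had 0, 7.21 and 25.4 untreated and 10156 and 10281 after LPS. Rsad2 went from 44.8, 77.5 and 197 to 20424 and 43217, and Irg1 from 148, 387 and 306 to 41720 and 60323. In each of the 4 the groups lay far apart. Cxcl2 was higher in LPS replicate 2 and Rsad2 and Irg1 in LPS replicate 3, while Cxcl10 was nearly equal in both. The log2 differences were 8.59 (SE 0.45), 8.42 (SE 0.47), 7.93 (SE 0.52) and 7.42 (SE 0.36) in that order, and the ratios of means were 1029, 942, 299 and 182. The 15 genes with the largest increase together took 0.00407%, 0.00608% and 0.00759% of reads untreated and 0.808% and 1.09% after LPS.

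**Figure D2:**
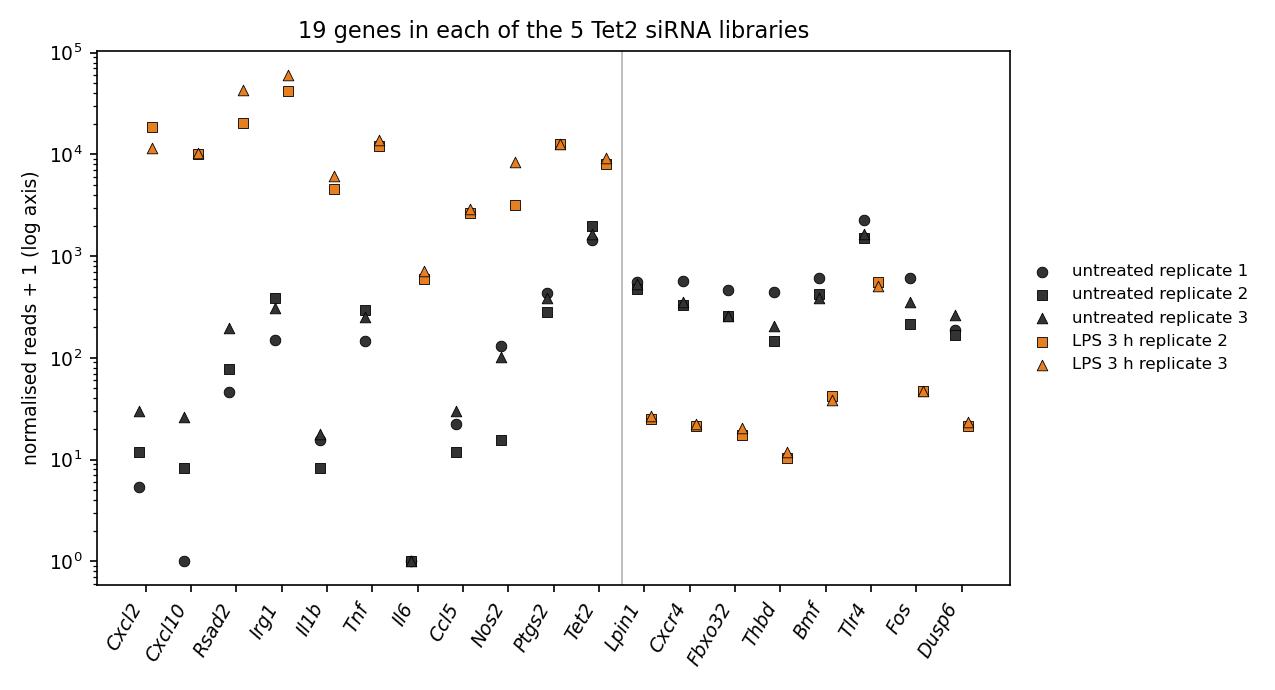
Normalised reads plus 1 (log axis) of 19 genes in the 3 untreated (dark) and 2 LPS-treated (orange) Tet2 siRNA libraries, with the replicate number as the marker shape. In the 11 genes to the left of the line both LPS libraries lie above all untreated ones, and in the 8 to the right both lie below.

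At the receptor, Tlr4 fell and Cd14 rose, and no change of Ly96 was called (difference 0.30, SE 0.46, adjusted p = 0.819). Tlr4 had 2283, 1523 and 1646 normalised reads untreated and 551 and 502 after LPS, a fall that the test called (difference -1.71, SE 0.32, adjusted p = 0.00254). Cd14, the surface protein that hands LPS to the receptor, rose from 1655, 1143 and 1352 to 3629 and 4605 (difference 1.56, SE 0.19). Groups did not overlap in either gene, as in all 891 raised and 595 of the 596 lowered genes. Of 27 tested genes of this receptor complex and its adaptors and kinases, 8 rose and only Tlr4 fell, and their median was 0.30. The largest rise was that of Ikbke, the kinase IKK-epsilon, from 358, 368 and 358 to 2865 and 5701. Irak3, a brake on Myd88 signalling, rose from 49.96, 64.9 and 60.1 to 317 and 321.

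Of 23 tested receptors for other microbial products 13 rose and 2 fell, with a median of 1.28. Nod2, a sensor of bacterial peptidoglycan, had 32.7, 25.2 and 27.5 normalised reads untreated and 699 and 1042 after LPS. Ddx58, the RNA sensor RIG-I, went from 19.8, 39.6 and 26.8 to 1447 and 1621. Clec4e, the receptor Mincle, which was among the 200 most abundant genes, went from 1748, 1083 and 1210 to 18319 and 32629. The log2 differences of these 3 were 3.98 (SE 0.22), 4.81 (SE 0.31) and 4.18 (SE 0.39). Both LPS libraries lay above every untreated one in each, as in all 891 raised genes. Of 13 inflammasome and pyroptosis genes, 3 rose (23.08%, against 7.14% of all genes tested) and 2 fell (15.38%, against 4.77%). Their median was 0.05. Nlrp3, the sensor, rose from 594, 663 and 595 to 5882 and 6131, and Casp4, which detects LPS in the cytosol, rose from 201, 146 and 121 to 1205 and 2293. Nlrp1b fell from 129, 91.9 and 106 to 15.6 and 17.2, and P2rx7, the ATP-gated channel upstream of Nlrp3, fell from 2209, 1627 and 1944 to 829 and 964.

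All 5 NF-kB subunit genes rose, with a median of 2.60. Nfkb1 went from 825, 1198 and 903 normalised reads to 6955 and 8729 (difference 2.98, SE 0.21) and Relb from 73.2, 88.3 and 68.1 to 663 and 805 (difference 2.85, SE 0.22). Of 20 tested inhibitors and feedback regulators of the pathway, 15 rose and 1 fell, with a median of 2.12. Tnfaip3, the ubiquitin-editing enzyme A20, went from 395, 319 and 356 to 4727 and 8118. Nfkbiz, a nuclear IkB protein, went from 388, 287 and 379 to 4247 and 3441. Traf1 had 3.45, 0 and 1.45 untreated and 1532 and 1721 after LPS, and its difference of 6.31 (SE 0.22, adjusted p = 8.04e-09) had the smallest p of the whole comparison.

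Immediate early genes were split. Of 28 tested members of the AP-1 and immediate early list, 9 rose and 5 fell, with a median of 0.62. Myc rose from 13.8, 9.01 and 15.2 normalised reads to 192 and 344, and Maff from 136, 141 and 127 to 640 and 803. Fos, which peaks within minutes of a stimulus, fell from 602, 213 and 354 to 45.9 and 46.2 (difference -2.38, SE 0.31). The MAP kinase phosphatases and Sprouty proteins, which limit kinase signalling, rose in 7 of 14 cases and fell in 1. Dusp8 had 1.72, 0 and 6.52 untreated and 195 and 176 after LPS. The lowered one was Dusp6, a phosphatase of ERK, which went from 188, 166 and 264 to 20.2 and 22.6 (difference -2.27, SE 0.21).

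Of 22 tested cytokine genes 16 rose and none fell. Their median was 1.94, or 2.58 with genes at 0 in all untreated libraries set to their lower bound. That bound is a plain log2 ratio to a floor, whereas other genes keep the variance-stabilised difference. Medians with bounds thus mix scales, and part of their excess is a change of scale. The genes at 0, 5 of the 22, passed the filter only through other libraries, so the count leans towards increases. Tnf had 145, 292 and 251 normalised reads untreated and 12125 and 13822 after LPS, and Il1b had 14.6, 7.21 and 16.7 untreated and 4540 and 6160 after LPS. Their log2 differences were 5.69 (SE 0.37) and 7.13 (SE 0.29). Il6 was at 0 in all 3 untreated libraries and at 593 and 718 after LPS, which is at least 676-fold higher when the untreated group is given a floor of 3 counts over the group. On the same floor Csf3, the granulocyte growth factor, was at least 189-fold higher and Il27 at least 104-fold higher. Tnf was thus detected before LPS and Il6 was not.

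Chemokines of both families rose. Of 11 tested CC chemokines 9 rose and none fell (median 2.48, or 3.66 with bounds). Of 8 tested CXC chemokines 5 rose and none fell (median 1.69, or 4.11 with bounds, which mix scales as above). At 0 in all untreated libraries were 2 of the CC and 3 of the CXC genes. Those passed the filter only through other libraries, so both counts lean towards increases. Ccl3, which attracts monocytes, was already abundant untreated at 4544, 4265 and 4923 normalised reads and reached 55062 and 45339. Ccl5 started low, at 21.5, 10.8 and 29.0, and reached 2631 and 2925. Ccl2 went from 121, 243 and 217 to 4649 and 7164. Cxcl3 was at 0 untreated and at 230 and 245 after LPS, at least 245-fold higher. The groups of these 4 genes did not overlap, as in all 891 raised genes.

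In the interferon arm, Ifnb1, the only one of 7 interferon genes that passed the filter, was at 0 in all untreated libraries and at 53.7 and 16.1 normalised reads after LPS, at least 36.0-fold higher (difference 1.87, SE 0.45, adjusted p = 0.0142), and its call was lost without LPS replicate 2 (adjusted p = 0.174). The bound was 16.6-fold without LPS replicate 2 and 55.5-fold without LPS replicate 3. Of 20 tested interferon receptors, kinases, STAT and IRF factors, 7 rose and none fell. Irf1 went from 172, 285 and 264 to 3251 and 6351, Irf7 from 36.2, 63.1 and 23.2 to 756 and 1094, and Irf9 from 217, 196 and 161 to 1212 and 1493. The median of the list was 0.45. Socs3, a feedback inhibitor of cytokine receptors, rose from 101, 101 and 105 to 948 and 1050, among 4 of 8 SOCS genes raised.

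Of 42 tested antiviral effector genes 41 rose and none fell, with a median of 3.24 (3.48 with bounds), against -0.001 for all genes tested. Cmpk2, the nucleotide kinase that neighbours Rsad2, went from 7.75, 16.2 and 39.1 normalised reads to 4207 and 8867. Ifit1, which binds viral RNA, went from 3.45, 7.21 and 23.9 to 3744 and 5125. Parp14 went from 128, 240 and 184 to 13235 and 18852. Untreated replicate 3 was the highest of the untreated libraries for Rsad2, Cmpk2 and Ifit1. Of 13 tested guanylate-binding proteins and immunity-related GTPases, which attack pathogen vacuoles, 12 rose and none fell, with a median of 3.52 (5.28 with bounds). Of these 13, 5 were at 0 in all untreated Tet2 siRNA libraries. Those passed the filter only through other libraries, so the count leans towards increases. Gbp2 had 0, 9.01 and 5.80 untreated and 2078 and 2648 after LPS (difference 6.56, SE 0.42), and Irgm2 had 62.0, 54.1 and 52.2 untreated and 1037 and 1457 after LPS. Members of the Ifit, Oas, Gbp and Tgtp families have near-identical copies, and how shared reads were counted is not given in the sources used here, so values of single members are uncertain.

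**Figure D3:**
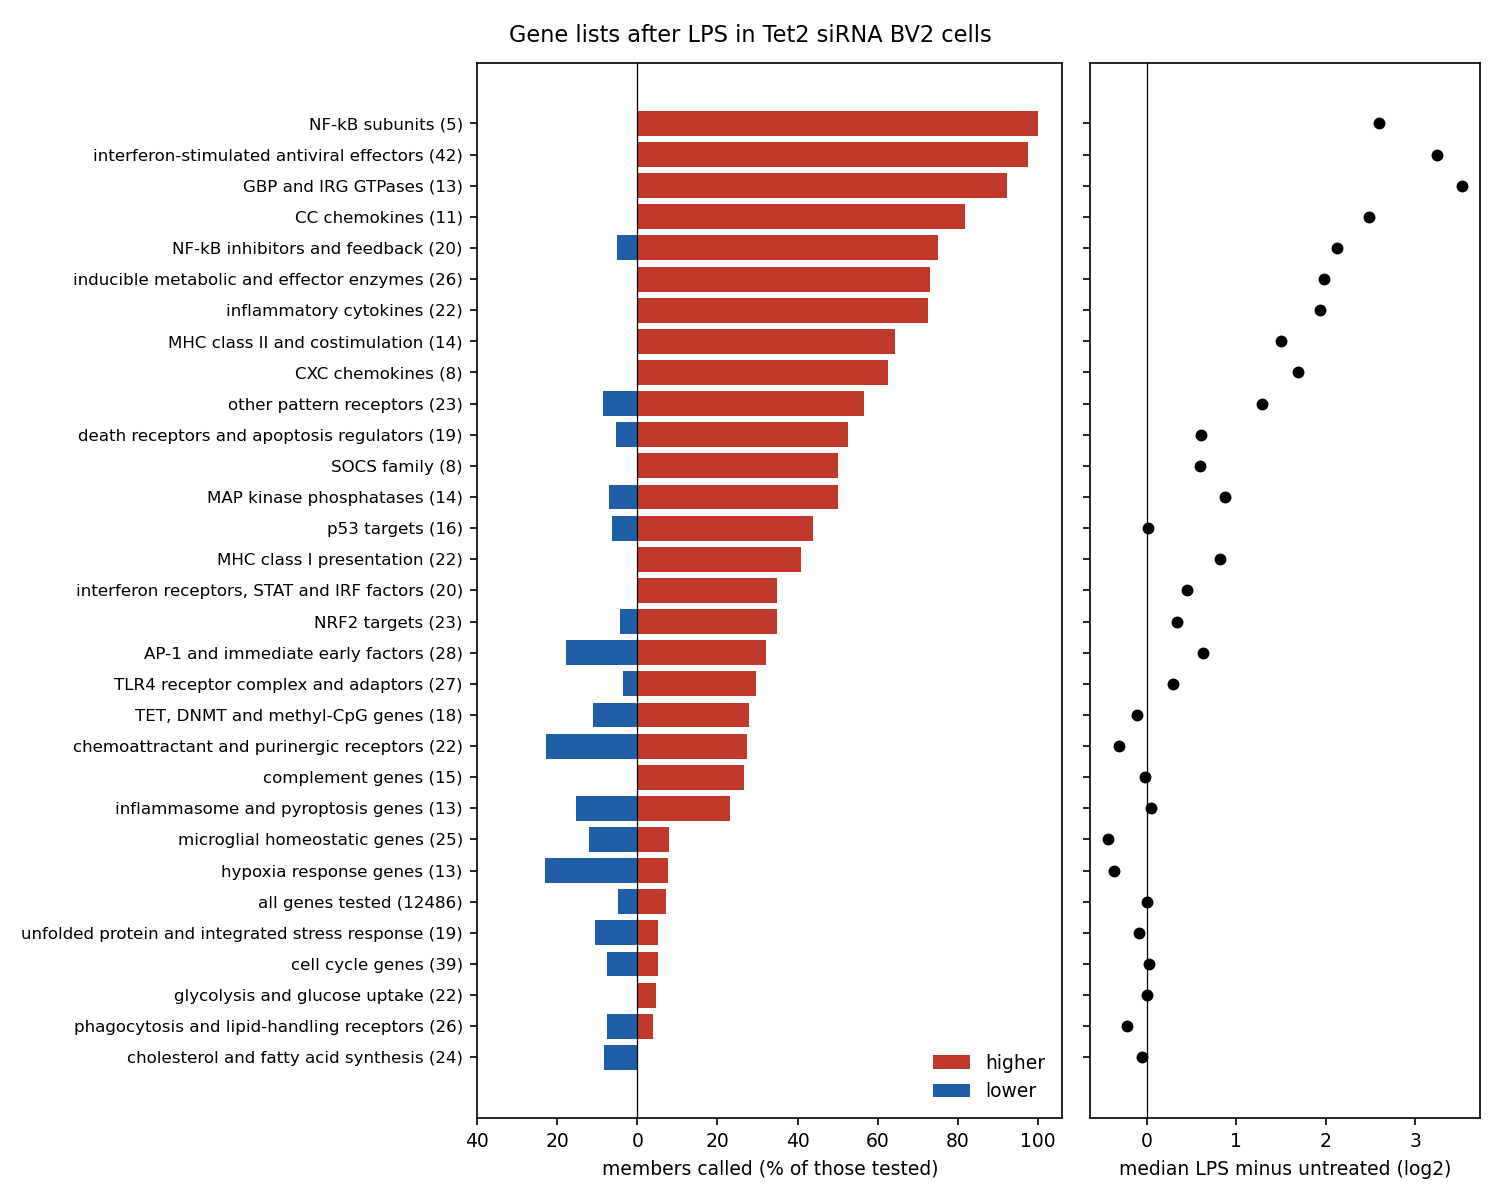
For each gene list with at least 5 members tested (number tested in brackets), the percentage of tested members called higher (red, right) or lower (blue, left) after LPS in Tet2 siRNA cells, and the median log2 difference. NF-kB subunits, antiviral effectors and the GTPases stand at the top, and the row of all genes tested gives 7.14% higher and 4.77% lower.

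Inducible enzymes and secreted effectors formed another raised group, 19 of 26 with none lowered and a median of 1.98. Ptgs2, the prostaglandin synthase COX-2, went from 438, 279 and 385 normalised reads to 12728 and 12530.1 (difference 5.01, SE 0.21), with LPS replicates nearly equal. Nos2, the inducible nitric oxide synthase, went from 130, 14.4 and 101 to 3177 and 8516 (difference 5.79, SE 0.53), with untreated replicate 2 far below the others and LPS replicate 3 well above replicate 2. Saa3, an acute phase protein, went from 37.0, 32.4 and 52.2 to 2689 and 1888. Arg1, which competes with Nos2 for arginine, had 1103, 292 and 1202 untreated and 254 and 1134 after LPS. Its low values were those of both libraries numbered 2, the groups overlapped, and the difference of -0.41 (adjusted p = 0.793) turned to 0.60 (adjusted p = 0.708) without LPS replicate 2.

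Of 23 tested NRF2 targets, genes of the oxidative stress response, 8 rose and 1 fell, with a median of 0.34. Slc7a11, the cystine transporter, rose from 1892, 928 and 771 normalised reads to 11985 and 11996, and Sqstm1, an autophagy receptor, from 12167, 10466 and 8426 to 24639 and 32434. Of 22 tested glycolysis genes only Slc2a6, a sugar transporter, rose, from 176, 321 and 246 to 1986 and 2681, and none fell (median 0.006). That is 4.5% raised, against 7.14% of all genes tested. In cholesterol and fatty acid synthesis 2 of 24 fell (8.33%, against 4.77% of all genes tested) and none rose. Scd2 fell from 23593, 36109 and 38267 to 15610 and 19029 (difference -0.89, SE 0.23, adjusted p = 0.0233), and it was the only called decrease among the 200 most abundant genes. Its call was lost without LPS replicate 2 (adjusted p = 0.189), LPS replicate 3 (adjusted p = 0.0703), untreated replicate 2 (adjusted p = 0.0746) or untreated replicate 3 (adjusted p = 0.113). The other lowered gene of the list was Lpin1, described below.

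Antigen presentation and costimulation rose in part. Of 22 tested MHC class I genes 9 rose and none fell, with a median of 0.81, led by Tap1, the peptide transporter, from 202, 112 and 141 normalised reads to 836 and 1493. Of 14 tested MHC class II and costimulatory genes 9 rose and none fell, with a median of 1.5. Of these 14, 2 were at 0 in all untreated libraries and passed the filter only through other libraries. Cd40 went from 177, 55.9 and 134 to 4630 and 9925, Cd274, the inhibitory ligand PD-L1, from 476, 223 and 332 to 2785 and 6436, and Icam1 from 546, 786 and 691 to 6417 and 10994. In all 3 the higher value was that of LPS replicate 3. Cd69 was at 0 in every untreated library and at least 97.4-fold higher after LPS.

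Of 19 tested death receptors and apoptosis regulators 10 rose and 1 fell. Fas had 0.861, 5.41 and 0 normalised reads untreated and 325 and 315 after LPS. Cflar, which blocks caspase-8, rose from 1072, 1173 and 1173 to 5332 and 7842, and Tnfrsf1b, the type 2 TNF receptor, from 2914, 1743 and 2189 to 12835 and 24749. Bmf, which promotes apoptosis, was the lowered one, from 608, 427 and 389 to 41.3 and 37.6 (difference -2.87, SE 0.35). Both a death receptor and inhibitors of death were thus among the raised genes. Of 16 tested p53 targets 7 rose and 1 fell, with a median of 0.01. Mdm2 and Plk2 rose 4.29-fold and 5.48-fold, and Sesn1 fell from 422, 528 and 414 to 93.4 and 97.8.

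The largest decreases fell on surface receptors and on regulators of growth and protein breakdown. Lpin1, a phosphatidate phosphatase of lipid synthesis, had 555, 470 and 526 normalised reads untreated and 24.1 and 25.8 after LPS, a difference of -3.39 (SE 0.18, adjusted p = 1.27e-07). Cxcr4, the receptor for Cxcl12, fell from 569, 326 and 355 to 20.2 and 21.5 (difference -3.19, SE 0.29). LPS replicates agreed closely in both genes, and only these 2 fell by at least 3 log2 units. Fbxo32 and Trim63, ubiquitin ligases known from muscle atrophy, fell from 466, 254 and 257 to 16.4 and 19.3 and from 608, 357 and 483 to 38.2 and 84.9. Thbd, the anticoagulant receptor thrombomodulin, fell from 441, 146 and 203 to 9.34 and 10.7.

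Of 22 tested chemoattractant and purinergic receptors 6 rose and 5 fell, with a median of -0.31. Besides Cxcr4, P2ry1, an ADP receptor, fell from 326, 359 and 519 normalised reads to 44.4 and 37.6, and Gpr183, an oxysterol receptor that guides migration, fell from 710, 485 and 669 to 27.3 and 89.2. Against these, Ccrl2, an atypical receptor that binds chemerin, rose from 26.7, 16.2 and 11.6 to 675 and 1556, and Gpr84, a receptor of medium-chain fatty acids, from 7.75, 28.8 and 7.24 to 636 and 659. Receptors of both directions thus stood in the list.

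Of 25 tested homeostatic genes of microglia 3 fell and 2 rose, with a median of -0.44 that differed between the LPS libraries. The median was -0.62 in LPS replicate 2 and 0.02 in LPS replicate 3, and macrophage markers were lower in replicate 2 as well (median -0.42 against 0.06), whose part in the result was not tested. In bulk RNA, fewer cells of a type and less RNA per cell cannot be told apart. Some single members lay apart from the untreated libraries in both LPS libraries. Mertk, a receptor for dying cells, fell from 989, 872 and 640 normalised reads to 148 and 223 (difference -2.0, SE 0.31). Rhob rose from 420, 436 and 375 to 1365 and 2827. Cd200r1, an inhibitory receptor of myeloid cells, fell from 326, 133 and 241 to 11.7 and 21.5. Of 26 tested phagocytic and lipid-handling receptors 2 fell (7.69%, against 4.77% of all genes tested) and 1 rose (3.85%, against 7.14%). The raised one was the oxidised lipoprotein receptor Olr1, from 15.5, 14.4 and 21.7 to 234 and 594. The lowered ones were Mertk and Cd300lf. Cd300lf (difference -0.97, adjusted p = 0.0498) lost its call in 13 settings, among them the fit with a replicate block (adjusted p = 0.0914).

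Of 39 tested cell cycle genes 2 rose (5.13%) and 3 fell (7.69%), near the 7.14% and 4.77% of all genes tested, with a median of 0.02. None of the 3 decreases was called without LPS replicate 2 or without LPS replicate 3. For E2f2, a cell cycle transcription factor, the difference was -1.2 in the full fit, -1.34 without replicate 2 (adjusted p = 0.0546) and -1.06 without replicate 3 (adjusted p = 0.168). Its call was also lost without untreated replicate 2 (adjusted p = 0.0604) or 3 (adjusted p = 0.0551). Cdk6, the kinase partner of D cyclins, rose from 1148, 1258 and 1385 normalised reads to 2236 and 2696. In the unfolded protein and integrated stress response 1 of 19 rose (5.26%) and 2 fell (10.53%), again beside 7.14% and 4.77% of all genes. One of the decreases, that of the transcription factor Xbp1 (difference -0.92, adjusted p = 0.0486), lost its call in 12 settings, among them a fit with the replicate number as a block (adjusted p = 0.0757) and those without LPS replicate 2 (adjusted p = 0.154) or 3 (adjusted p = 0.252). Eif2ak3, the stress kinase PERK, fell from 449, 467 and 437 to 185 and 176. In the hypoxia list 1 of 13 rose (7.69%, against 7.14% of all genes tested) and 3 fell (23.08%, against 4.77%). Without LPS replicate 2 all 3 decreases lost their call, with adjusted p-values of 0.0846 for Ankrd37, 0.0724 for Ddit4 and 0.267 for Kdm3a. Ddit4 also lost it without LPS replicate 3 (adjusted p = 0.0792), and Kdm3a in 11 settings in all, the replicate block among them (adjusted p = 0.0644). Of 15 tested complement genes 4 rose (26.67%, against 7.14% of all genes tested) and none fell, with a median of -0.024. Cfb rose from 0.861, 0 and 4.35 to 94.2 and 111. Serping1, also raised, was at 0 in all untreated libraries and passed the filter only through other libraries. C5ar1 (adjusted p = 0.0254) lost its call in 5 settings, among them the fit without untreated replicate 3 (adjusted p = 0.0935).

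Among genes that write, read or remove DNA methylation or deaminate cytosine, Tet2 included, 5 of 18 rose and 2 fell, with a median of -0.11. Dnmt3l, a cofactor of the de novo methyltransferases, rose from 89.6, 82.9 and 102 normalised reads to 259 and 391 (difference 1.53, SE 0.21). Apobec3, which restricts retroviruses, rose from 304, 472 and 272 to 1291 in both LPS libraries, and the RNA-editing enzyme Apobec1 fell from 1664, 1451 and 1358 to 587 and 603. Each of these 3 genes had groups that did not overlap, as had all 891 raised and 595 of the 596 lowered genes.

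The 2 LPS libraries differed in strength. Of the 891 raised genes, 726 (81.5%) had the higher value in LPS replicate 3, against 51.6% of all genes tested, with a median gap of 0.27 log2 units. The lowered genes showed no such lean, with 318 of 596 higher in LPS replicate 2 and a median gap of -0.025. Antiviral effectors had a median of 3.07 in replicate 2 and 3.52 in replicate 3, and CC chemokines 2.22 and 2.85. Other pattern receptors went the other way, at 1.27 and 1.09. The widest gaps among called genes included Cd83, a maturation marker of dendritic cells, at 945, 597 and 700 normalised reads untreated and 1064 and 3974 after LPS, and Mmp12, macrophage elastase, at 531, 153 and 495 untreated and 653 and 2403 after LPS. Without LPS replicate 3 neither was called, with differences of 0.52 (adjusted p = 0.407) for Cd83 and 0.85 (adjusted p = 0.539) for Mmp12. Cd83 also lost its call without untreated replicate 2 (adjusted p = 0.0854) or 3 (adjusted p = 0.0834). Mmp12, with an adjusted p of 0.0472 in the full fit, lost its call in 14 of the settings tried, among them those without untreated replicate 2 (adjusted p = 0.138) or 3 (adjusted p = 0.055). Mx1, an antiviral GTPase, stood at 639 and 1841 after LPS, and it stayed called.

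**Figure D4:**
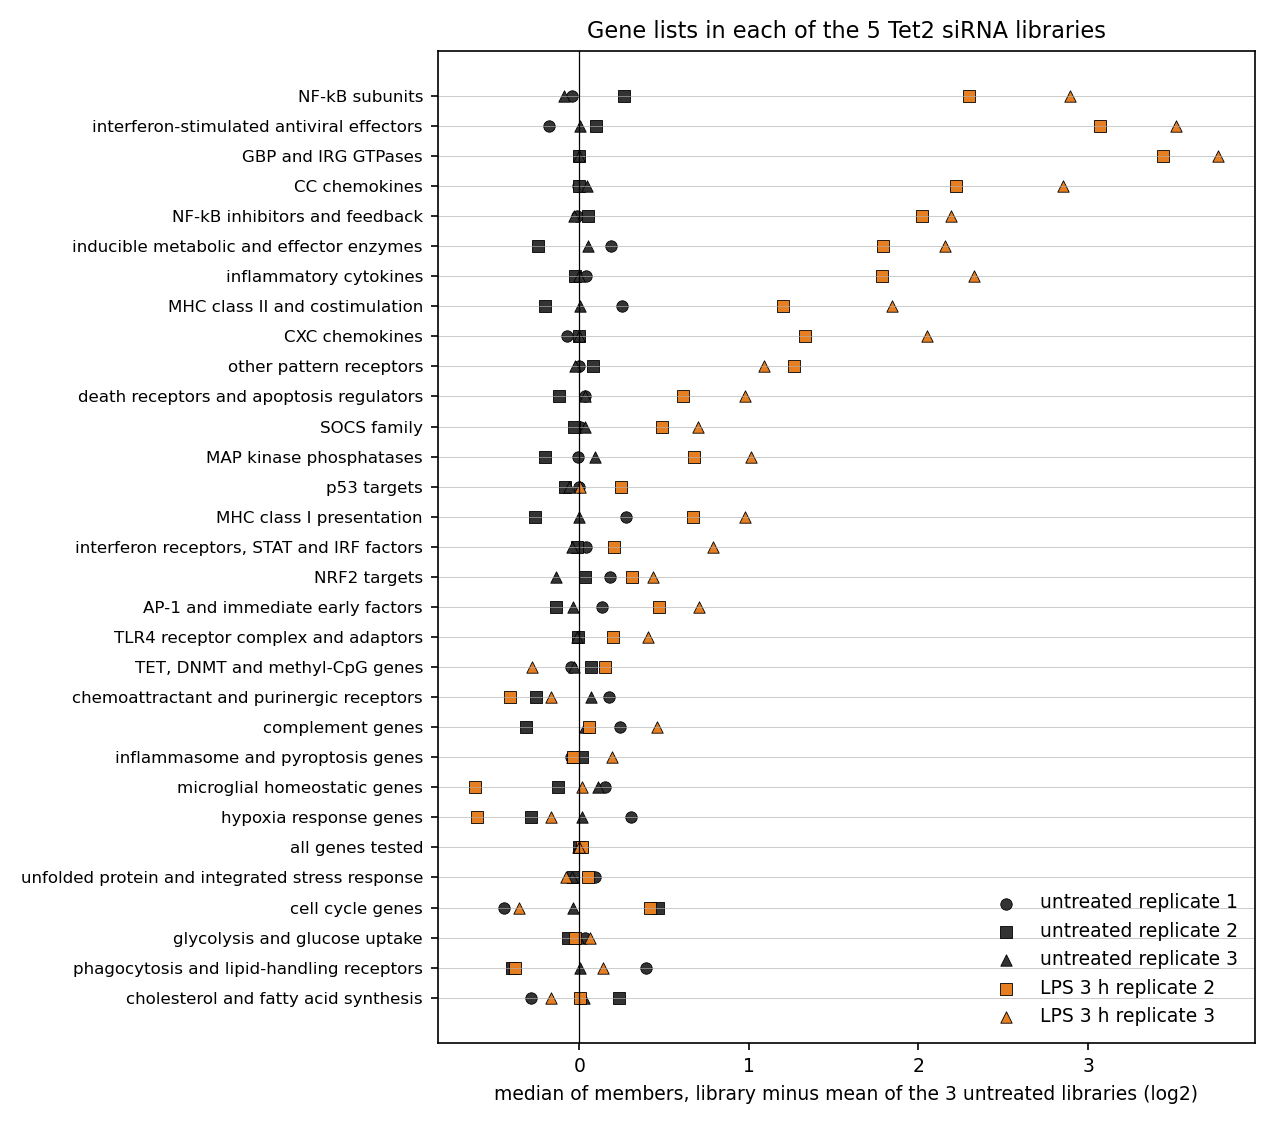
The median over tested members of each gene list in each of the 5 Tet2 siRNA libraries, as the log2 difference from the mean of the 3 untreated libraries (dark, untreated; orange, LPS; shape, replicate number). NF-kB subunits and antiviral effectors lie far to the right in both LPS libraries, while cell cycle and homeostatic genes separate the libraries numbered 2 from the others.

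The response was then set against that of the control siRNA cells by testing the difference between both responses, the gene's LPS effect with Tet2 siRNA minus that with control siRNA. No gene was called (0.0%; limma, smallest adjusted p = 0.9997), 281 genes (2.25%) had an unadjusted p under 0.05, and voom called 0 with 264 at that level. With control siRNA 1649 genes rose (13.2%) and 1304 fell (10.4%), with 3 LPS libraries there and 2 here. Among genes called with Tet2 siRNA, 91 were not called with control siRNA, 42 raised and 49 lowered. All 91 had the same sign there, 13 had an unadjusted p under 0.05 for the difference, and so none can be called particular to the Tet2 siRNA cells.

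By size, 659 of the 891 raised genes had a smaller response than with control siRNA, and 352 of the 596 lowered genes did. Over all 12486 genes tested, the LPS difference was the lower with Tet2 siRNA for 6316, increases and decreases together. Of the antiviral effectors 41 of 42 had the smaller response, with a median difference of -0.93, and of the GTPases 13 of 13, with a median of -1.11, against -0.004 over all genes tested. The median stayed between -1.13 and -0.59 for the effectors and between -1.27 and -0.61 for the GTPases over 21 other settings, those that leave out a library included. Of the CC chemokines only 3 of 11 had the smaller response, with a median of 0.31 that stayed between 0.18 and 0.56. NF-kB feedback genes lay between, at -0.21. These are descriptions of lists chosen with the data known, and no gene in them passed the test.

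Levels of single genes after LPS follow. Rsad2 after LPS had 20424 and 43217 normalised reads with Tet2 siRNA and 88644, 122555 and 48734 with control siRNA, so all control values were higher. The difference between its responses was -2.10 (SE 0.69, unadjusted p = 0.0101, adjusted p = 0.9997). It also takes in the untreated levels, with means of 106 for Tet2 siRNA and 55.1 for control siRNA and overlapping ranges. Ifit2 had 6757 and 9511 after LPS with Tet2 siRNA and 21019, 35963 and 12915 with control siRNA. The difference between its responses was -2.06 (SE 0.56, unadjusted p = 0.00291). Its untreated means were 113 with Tet2 siRNA and 63.1 with control siRNA, again with overlapping ranges. Tnf, in contrast, had 12125 and 13822 after LPS with Tet2 siRNA and 8938, 20155 and 13996 with control siRNA. These overlap, and the difference between its responses was 0.25 (SE 0.50). Il1b overlapped as well, with a difference of 0.06 (SE 0.39). Control replicate 3 was the lowest of its group for Rsad2 and Ifit2, and the closest to the Tet2 siRNA values.

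The 8 genes with the smallest unadjusted p for this difference, from 0.00179 to 0.00381, were Tapbpl, Mx2, Rufy4, Ifit2, Rin2, Gm9881, Irgm2 and Ifit3. Tapbpl, a peptide editor of MHC class I, had 106, 103 and 81.9 normalised reads untreated and 162 and 190 after LPS, and with control siRNA 375, 445 and 309 after LPS from 69.4, 107 and 72.0. Its rise was 0.71 with Tet2 siRNA and 1.86 with control siRNA. Rin2, which activates Rab5 on endosomes, fell from 3087, 3327 and 3633 to 987 and 1233 with Tet2 siRNA, and had 3248, 3549 and 3134 untreated and 2167, 3031 and 1736 treated with control siRNA. The first pair of groups lay further apart than the second, at -1.57 and -0.55, but the difference of -1.02 (SE 0.28) did not pass the adjusted test.

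**Figure D5:**
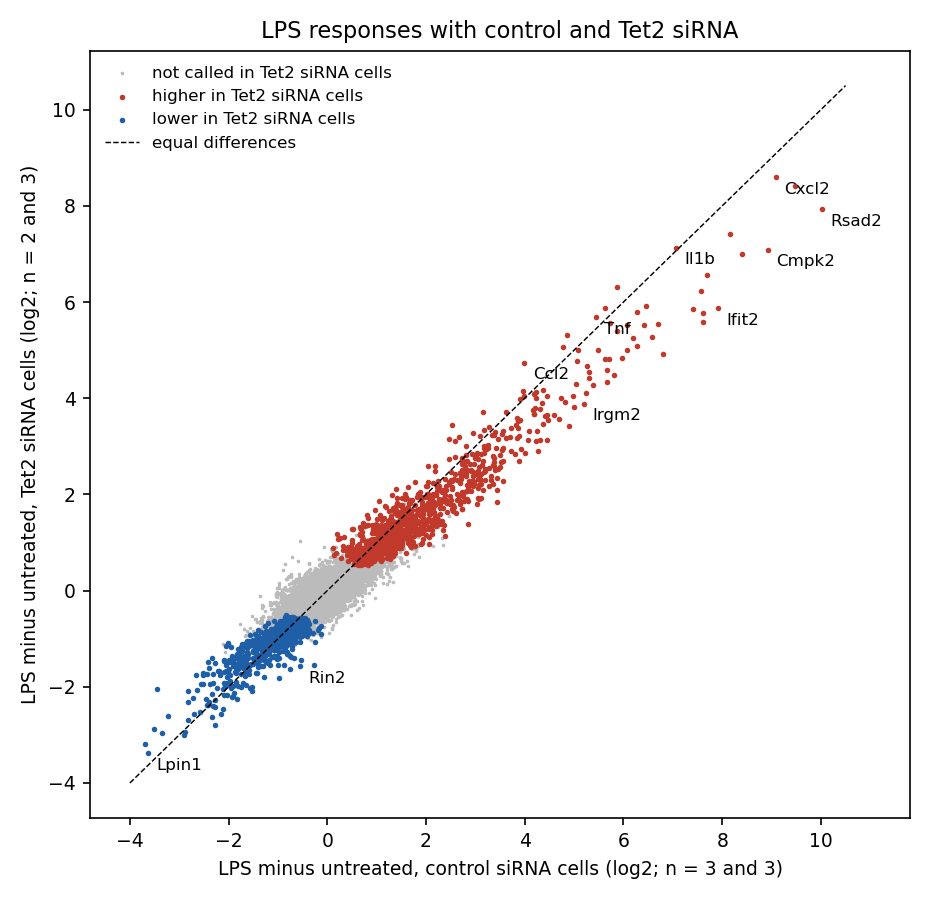
The LPS effect with Tet2 siRNA (vertical, log2) against that with control siRNA (horizontal, log2), 1 point per gene tested, coloured by the call with Tet2 siRNA. The effects share no library. Rsad2, Cmpk2 and Ifit2 lie below the dashed line of equal effects, Il1b lies on it, and Tnf and Ccl2 lie just above it.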

How the data were processed

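PolyA RNA was read as strand-specific libraries. The authors used TopHat2 2.0.9, Trim Galore 0.3.3, DESeq2 and mm9, per the submitters' processing notes. The read counter, with its strand setting and annotation, is not given in the sources used here. The deposited table holds variance-stabilised log2 values made by the authors for 26061 genes, with a lowest value of 4.0214 for 0 reads. A spreadsheet had turned 25 names into dates.

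Undoing the transform gave whole reads for every value within 0.01 of a read. Reads were used for levels, shares and voom. The test was limma 3.58.1 (R 4.3.3) on the log2 values as deposited, with 1 mean per group over all 11 libraries, a variance trend and Benjamini-Hochberg adjustment over genes that in 2 or more libraries exceeded the lowest value by 1 log2 unit or more, called at an adjusted p under 0.05. Tests are two-sided, with 7 residual degrees of freedom. The untreated floor is 3 counts over the group, 0.969 normalised reads, and covers counting error only. Medians with bounds use the log2 ratio to that floor for genes at 0 untreated and the variance-stabilised difference for all others.

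The comparison, its 31 gene lists, 6 marker lists and the rule for named genes were chosen with earlier results of these data known. Of 733 list entries 729 were in the table. Named were 14 fixed genes (Arg1, Tlr4, Ifnb1, Il6, Tnf, Il1b, Ptgs2, Nos2, Cxcl10, Ccl5, Ccl2 and Tet1 to Tet3), the 15 largest increases and decreases, up to 4 members per list by p, the 10 highest genes at 0 untreated, the 6 with the widest gap between LPS libraries, the 5 largest called changes each way among the 200 most abundant, and the 8 smallest p of the difference between responses. The text gives the most informative of these, and some results are not reported here. On data simulated for LPS in Tet2 siRNA cells (12249 genes), recovery was 10.4% at a 1.5-fold change, 67.2% at 2-fold and 98.5% at 4-fold. Of the calls 3.31% were false. Genes were drawn independently with a spread set by their level, and only genes above a set untreated level were changed. Deviations shared across genes, such as those of the libraries numbered 2, were not simulated, so the false share does not cover them. The alternatives tried were other filters, scalings, variance models, library weights, voom, a replicate block and leaving out libraries.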

Additional observations from a re-analysis of the deposited data

How the results depend on the processing

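With 2 LPS libraries the number of calls depends on each library, and calls near the threshold are loose. Leaving out 1 library at a time gave 504 to 1038 raised and 288 to 736 lowered genes, and 473 to 663 and 259 to 342 at 1 log2 unit or more. The lowest counts came without LPS replicate 3. Library weights gave 1487 raised and 1245 lowered genes, including 889 and 596 of the main calls. Leaving out both Tet2 siRNA libraries numbered 2, chosen after the data were seen, gave 605 raised and 262 lowered. With no filter (18493 genes) 853 rose and 516 fell, with a stricter one 842 and 572, with quantile normalisation 812 and 723, with median centring 857 and 658, with the 5 Tet2 siRNA libraries alone 1005 and 688, and with voom on recovered reads 911 and 604. The median shift of all genes under any scaling was at most 0.062 in size, at -0.062 with quantile normalisation. The sources used here do not say what a replicate number stands for. Deviations from the group mean of same-numbered Tet2 siRNA libraries correlated at 0.633 for number 2 and 0.241 for number 3. With 2 LPS libraries these deviations mirror each other, so the values are not separate signs of pairing. Untreated and LPS-treated control siRNA libraries of the same number gave -0.131, 0.457 and -0.283 for numbers 1 to 3. A fit with the replicate number as a block gave 932 raised and 649 lowered.

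The difference between responses had 0 calls under every setting in which it was run (it was not run on the 5 Tet2 siRNA libraries alone). Of 145 called genes named by the rule none changed sign under any setting, and 0 to 16 lost their call. Arg1, not called, turned from -0.41 to 0.60 without LPS replicate 2, and stood between -1.43 and 0.60 with 1 library left out at a time. The homeostatic list turned from -0.44 to 0.016 and the phagocytic list from -0.22 to 0.14 without that library, and the cell cycle list from 0.022 to -0.36. Complement genes stood at 0.46 without it. In the simulation 10.4% of genes changed 1.5-fold were recovered, so many small changes would be missed. Depth was not varied there, and deviations shared across genes were not simulated.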
